A study of Mus musculus with 26 samples.

Results

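Heme is the iron porphyrin that cytochromes and other oxygen and electron carrying proteins hold, and brown adipose tissue, dense in mitochondria, needs a steady supply of it. Its synthesis starts in the mitochondrion with aminolevulinate synthase, the step that sets the pace of the whole pathway outside red blood cells, continues in the cytosol and ends in the mitochondrion, where ferrochelatase inserts iron. Its breakdown starts with heme oxygenase, which opens the ring and frees iron and carbon monoxide, and goes on with biliverdin reductase, which turns biliverdin into bilirubin. The genes described here are 10 enzymes of these paths, picked by symbol from the 48432 genes of an expression table: Alas1, Alad, Urod, Cpox, Ppox and Fech of synthesis and Hmox1, Hmox2, Blvra and Blvrb of breakdown. On GRCm38 (mm10) Hmox1 lies at chr8:75093621-75100589, Alas1 at chr9:106233455-106248654 and Cpox at chr16:58670292-58717636. All 10 passed the filter on low values, and no member had a value of 0 in any library.

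The samples were total RNA of brown adipose tissue from mice 2 months old, 26 libraries in 8 groups. The mutants, called BKO, carried Ucp1-Cre on the floxed Klf15 background (Ucp1-Cre/+;K15F/F), so that the recombinase was driven by the promoter of the brown fat uncoupling protein; Klf15 encodes a zinc finger transcription factor of nutrient metabolism. The other genotype, called FF, was KLF15 flox/flox without Cre, so both genotypes carried the floxed alleles. Each genotype had 13 libraries: 3 from mice fasted at room temperature, 4 from cold challenged mice, 3 from mice given cold plus fasting and 3 from mice fed at room temperature. The labels used here give neither the cold temperature nor how long cold or fasting lasted, and they do not say whether replicates came from separate litters, so p-values measure the spread between these libraries.

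Klf15 lay between 2.124 and 8.921 FPKM in the 13 BKO libraries, against 9.035 to 30.55 FPKM in the 13 FF libraries, so no BKO library reached the lowest FF library. FPKM, fragments scaled to transcript length and to the mapped fragments of each library, carries no read total. The steps between low values gave a rough estimate, which put the deepest library at 1.61 times the depth of the shallowest. Between 11.3% and 40.1% of a library's ratios of low values lay within the peak used for it. The library numbers in the labels fell into 2 runs, the first of 8 libraries (all FF: 3 fasted, 3 of the 4 cold and 2 of the 3 fed) and the second of 18, which held all 13 BKO libraries, called the first and the second series here. Every BKO response was therefore measured within the second series, whereas all FF fasted libraries were in the first and all BKO fasted libraries in the second, so series and genotype cannot be told apart in the fasted condition. The summed level of 9 adipocyte genes, listed here as brown adipocyte markers, lay between 12350 and 18280 FPKM per library. The sum does not give the level of each gene.

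In the fed state Alas1 was the most abundant of the 10 mRNAs, with 179.3 ± 26.3 FPKM in BKO mice (SD, n = 3) and 166.1 ± 29.2 FPKM in FF mice (SD, n = 3). Urod, uroporphyrinogen decarboxylase, followed with a mean of 61.6 FPKM in fed BKO and 59.99 FPKM in fed FF mice. Alad, which joins aminolevulinate into porphobilinogen, had 57.5 FPKM in fed BKO and 54.0 FPKM in fed FF mice. Cpox, the oxidase that makes protoporphyrinogen, was the scarcest member, with 3.23 ± 0.866 FPKM in BKO mice and 3.41 ± 0.139 FPKM in FF mice. Hmox1, the stress inducible heme oxygenase, was nearly as scarce in the fed state, with 6.48 ± 2.09 FPKM in BKO mice and 4.53 ± 0.896 FPKM in FF mice. Its constitutive relative Hmox2 was several times more abundant, with 40.4 ± 4.04 FPKM in fed BKO mice and 34.9 ± 1.37 FPKM in fed FF mice. FPKM is scaled to transcript length, so these are comparisons of levels between genes per length. Over the 26 libraries Hmox1 spanned from 3.879 to 385.2 FPKM and Alas1 from 31.9 to 203.5 FPKM. Outside the fasted room temperature groups Hmox1 stayed between 3.879 and 14.15 FPKM in all 20 libraries and Alas1 between 112.2 and 203.5 FPKM.

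Fasting at room temperature moved Hmox1 and Alas1 in opposite directions in both genotypes. Hmox1 had 367.4, 99.99 and 72.62 FPKM in fasted BKO mice, against 6.122, 4.596 and 8.723 FPKM in fed BKO mice. In FF mice Hmox1 had 88.63, 214.6 and 385.2 FPKM when fasted, against 4.163, 3.879 and 5.554 FPKM when fed. Every fasted library lay far above every fed library, while the 3 fasted libraries of a genotype differed from each other several times over. The mean was 27.8 times the fed mean in BKO and 50.6 times in FF mice. On the log2(FPKM + 1) scale, the scale of every log2 difference given here, Hmox1 rose by 4.26 (SE 0.44, adjusted p = 2.46e-07) in BKO and by 5.15 (SE 0.44, adjusted p = 1.285e-08) in FF mice. Within the first series alone, fasted against fed FF mice differed by 5.28 (SE 0.44, adjusted p = 0.0001106). In whole tissue, fewer cells of a type and less RNA per cell cannot be told apart.

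Alas1 had 59.93, 59.95 and 79.35 FPKM in fasted BKO mice, against 151.4, 203.5 and 183.1 FPKM in fed BKO mice. In FF mice it had 60.25, 31.9 and 42.84 FPKM when fasted, against 175.0, 189.8 and 133.4 FPKM when fed. The fasted libraries of both genotypes lay below every other library of the study. Alas1 fell to 37.0% of the fed mean in BKO mice (log2 difference -1.42, SE 0.18, adjusted p = 2.894e-06) and to 27.1% of it in FF mice (log2 difference -1.89, SE 0.18, adjusted p = 4.233e-08). Within the first series the FF difference was -2.04 (SE 0.21, adjusted p = 0.0002042). The ratio of Hmox1 to Alas1 mRNA leaves out Hmox2, the other heme oxygenase. Hmox2 averaged 40.4 FPKM in fed BKO and 34.9 FPKM in fed FF mice, so this ratio does not describe heme oxygenase mRNA as a whole. The ratio was 6.13, 1.67 and 0.915 in fasted BKO mice and between 0.0226 and 0.0476 in fed BKO mice. In FF mice that ratio was 1.47, 6.73 and 8.99 when fasted and between 0.0204 and 0.0416 when fed. Fasted FF replicate 1 had the lowest Hmox1 and the highest Alas1 of its group, and fasted BKO replicate 3 likewise of its own.

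**Figure D1:**
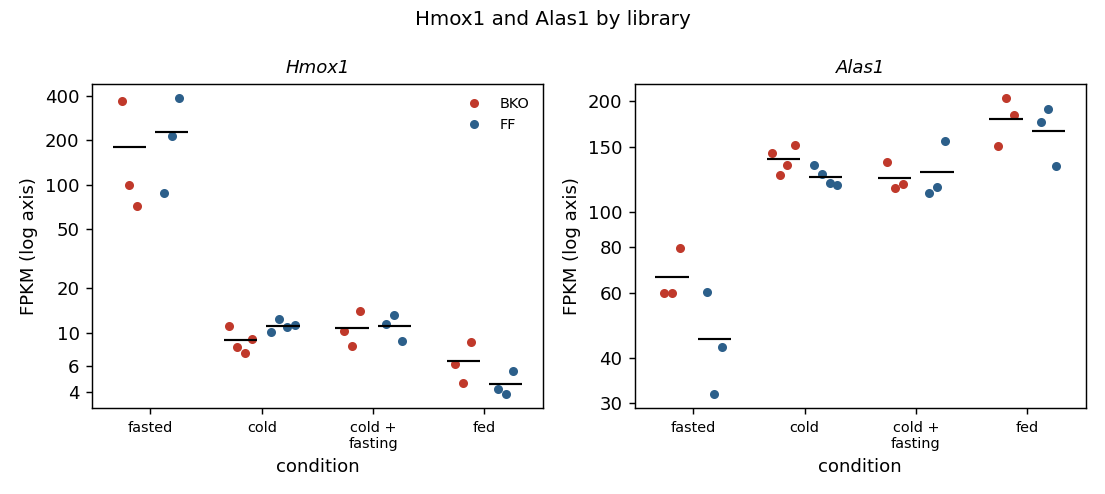
Hmox1 (left) and Alas1 (right) in FPKM on log axes, one point per library and a line at each group's mean, BKO in red and FF in blue. The 6 fasted libraries stand alone in both panels: Hmox1 lies between 72.62 and 385.2 FPKM there and at most at 14.15 FPKM elsewhere, and Alas1 lies between 31.9 and 79.35 FPKM there and at least at 112.2 FPKM elsewhere.

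Most of the enzymes that follow Alas1 were also lower after fasting, by smaller amounts. Alad had 36.71, 33.73 and 46.94 FPKM in fasted BKO mice against 54.13, 52.93 and 65.46 FPKM in fed ones, and 35.54, 29.18 and 37.2 FPKM in fasted FF mice against 50.23, 53.06 and 58.81 FPKM in fed ones. Fasted and fed libraries did not overlap in either genotype, and Alad fell by 0.55 (SE 0.12, adjusted p = 0.001664) in BKO and by 0.66 (SE 0.12, adjusted p = 0.0002048) in FF mice on the log2 scale. Fech, ferrochelatase, had 30.63 to 34.56 FPKM in fasted against 44.94 to 53.66 FPKM in fed BKO mice, and 27.52 to 35.32 FPKM in fasted against 45.61 to 47.53 FPKM in fed FF mice. It fell to 65.8% of the fed mean in BKO mice (log2 difference -0.59, SE 0.10, adjusted p = 9.734e-05) and to 66.9% in FF mice (log2 difference -0.57, SE 0.10, adjusted p = 8.201e-05). Urod fell to 78.3% of the fed mean in BKO (log2 difference -0.35, SE 0.08, adjusted p = 0.00136) and to 79.2% in FF mice (log2 difference -0.33, SE 0.08, adjusted p = 0.001305). Within the first series alone the FF difference of Urod was -0.30 with an adjusted p of 0.07015. These 4 enzymes, Alas1, Alad, Urod and Fech, catalyse the first, an early, a middle and the last step of the path.

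Ppox and Cpox, the paired oxidases that precede ferrochelatase, did not share one pattern. Ppox had 12.48, 12.26 and 13.79 FPKM in fasted and 13.65, 13.44 and 15.54 FPKM in fed BKO mice, with overlap (log2 difference -0.13, SE 0.09, adjusted p = 0.2689). In FF mice it had 10.62, 11.8 and 11.45 FPKM when fasted, against 14.56, 15.03 and 12.92 FPKM when fed. It fell there by 0.30 (SE 0.09, adjusted p = 0.009256), a call lost when only those groups were fitted. Cpox rose in FF mice: it had 5.677, 5.306 and 4.852 FPKM in fasted against 3.53, 3.26 and 3.452 FPKM in fed FF libraries, 1.55 times the fed mean (log2 difference 0.51, SE 0.11, adjusted p = 0.001246). The fasted FF libraries were the highest of the study for Cpox. In BKO mice Cpox had 3.668, 3.42 and 3.384 FPKM when fasted and 3.301, 4.064 and 2.336 FPKM when fed (log2 difference 0.11, SE 0.11, adjusted p = 0.5253). The difference between these responses, BKO minus FF, was -0.40 (SE 0.16, adjusted p = 0.2891) and did not pass the threshold.

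Of the breakdown genes other than Hmox1, Blvra in FF mice alone passed the test after fasting. Hmox2 averaged 40.1 ± 2.64 FPKM in fasted and 40.4 ± 4.04 FPKM in fed BKO mice, and 36.7 ± 2.59 FPKM in fasted and 34.9 ± 1.37 FPKM in fed FF mice (SD, n = 3 per group). Its log2 differences were -0.01 (adjusted p = 0.9524) in BKO and 0.07 (adjusted p = 0.5838) in FF mice. Blvra, biliverdin reductase A, had 35.95, 26.47 and 26.23 FPKM in fasted against 41.47, 41.4 and 42.08 FPKM in fed FF mice and fell by 0.50 (SE 0.13, adjusted p = 0.004854). Its difference in BKO mice was -0.12 (SE 0.13, adjusted p = 0.5252). Blvrb, the flavin reductase known as biliverdin reductase B, had log2 differences of 0.18 (adjusted p = 0.3525) in BKO and -0.05 (adjusted p = 0.7981) in FF mice. Counted over the 10 members, fasting raised 1 and lowered 4 in BKO mice, where 12.9% of the 12702 genes tested rose and 14.6% fell. It raised 2 and lowered 6 in FF mice, where 18.1% of all genes rose and 19.4% fell. The median log2 difference was -0.13 over the members and -0.01 over all genes in BKO mice, and -0.32 over the members and 0.00 over all genes in FF mice.

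**Figure D2:**
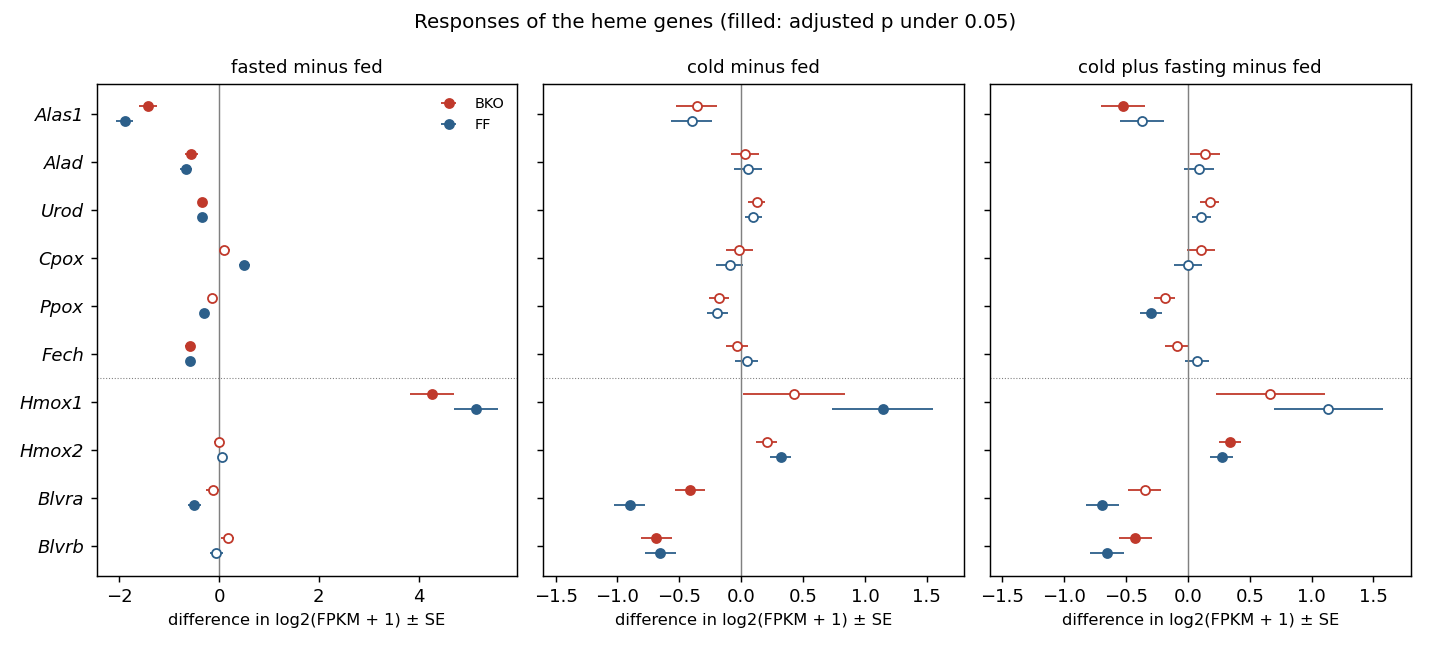
Difference in log2(FPKM + 1) from the fed group for the 10 genes after fasting, cold, and cold plus fasting, in BKO (red) and FF (blue) mice, with bars of 1 SE and filled points where the adjusted p is under 0.05; the left panel has a wider axis. Hmox1 at 4.26 and 5.15 and Alas1 at -1.42 and -1.89 stand out after fasting, and the largest filled fall under cold is that of Blvra in FF mice, -0.90.

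The 3 synthesis enzymes that fell in both genotypes and whose promoter windows could be printed are set below beside Cpox, which went the other way in FF mice. Windows run from 250 bases before to 50 bases after a RefSeq start site (GRCm38.p6), 5′ to 3′ on the gene's strand, and 8 of the 10 members had such a window. Capitals mark motifs found by an exact search on both strands, and a match on the other strand is printed as its reverse complement. The letters searched were GCGCA, any base and GCGC for the factor NRF1. The E-box was CACGTG. The third motif was CCAAT, and the GATA motif was AGATAA.
Alas1, chr9:106247681-106247980, minus strand: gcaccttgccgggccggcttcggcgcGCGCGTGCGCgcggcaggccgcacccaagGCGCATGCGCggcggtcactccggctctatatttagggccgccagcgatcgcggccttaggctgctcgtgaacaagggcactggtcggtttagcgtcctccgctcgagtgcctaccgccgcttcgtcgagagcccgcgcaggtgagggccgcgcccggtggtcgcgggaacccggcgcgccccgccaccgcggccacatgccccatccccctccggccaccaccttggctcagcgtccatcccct
Alad, chr4:62519860-62520159, minus strand: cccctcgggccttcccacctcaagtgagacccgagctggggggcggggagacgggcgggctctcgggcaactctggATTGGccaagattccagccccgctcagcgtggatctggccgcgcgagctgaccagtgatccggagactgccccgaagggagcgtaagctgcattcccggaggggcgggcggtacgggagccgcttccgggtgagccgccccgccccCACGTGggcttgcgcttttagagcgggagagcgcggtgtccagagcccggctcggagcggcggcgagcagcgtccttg
Urod, chr4:116994364-116994663, minus strand: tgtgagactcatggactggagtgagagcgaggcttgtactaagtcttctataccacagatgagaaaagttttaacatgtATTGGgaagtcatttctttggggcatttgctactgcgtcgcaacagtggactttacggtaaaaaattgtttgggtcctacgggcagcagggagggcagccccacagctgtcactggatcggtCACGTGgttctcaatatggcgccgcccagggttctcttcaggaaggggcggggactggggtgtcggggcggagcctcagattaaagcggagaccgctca
Cpox, chr16:58669958-58670257, plus strand: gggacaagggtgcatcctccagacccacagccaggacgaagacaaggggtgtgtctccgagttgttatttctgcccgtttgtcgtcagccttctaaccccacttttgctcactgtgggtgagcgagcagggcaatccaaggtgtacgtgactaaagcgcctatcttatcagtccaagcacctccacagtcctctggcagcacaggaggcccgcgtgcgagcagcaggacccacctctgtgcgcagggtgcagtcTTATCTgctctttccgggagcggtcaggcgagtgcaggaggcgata

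The Alas1 window held the NRF1 motif at -224 and -195 from the start site, and 4.6% of the 32851 windows of all genes held it. Alad and Urod each held an E-box, at -28 and -49, which 7.15% of all windows held, and each held CCAAT, at -174 and -171, which 37.4% held. Cpox held GATA at 4 bases past the start site, against 11.2% of all windows, and none of the other motifs searched. The antioxidant response element core, TGACNNNGC, held by 12.4% of all windows, was in none of these 4. A match describes letters in the window and not a bound site.

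Under cold challenge both reductases fell in both genotypes, and none of the 6 synthesis members passed the test. Blvrb had 20.13, 23.49, 20.56 and 19.43 FPKM in cold against 34.99, 28.9 and 39.24 FPKM in fed BKO mice, and 19.94, 22.05, 24.38 and 19.94 FPKM in cold against 35.06, 35.88 and 32.46 FPKM in fed FF mice. The groups did not overlap, and Blvrb fell by 0.68 (SE 0.13, adjusted p = 0.0005976) in BKO and by 0.65 (SE 0.13, adjusted p = 0.0006399) in FF mice. Blvra had 27.61, 27.27, 19.28 and 24.68 FPKM in cold against 32.42, 35.19 and 31.47 FPKM in fed BKO mice, a fall of 0.42 (SE 0.12, adjusted p = 0.02245) that was not called when only those groups were fitted, nor without cold replicate 3 (adjusted p = 0.07694), fed replicate 1 (0.05041) or fed replicate 2 (0.09733). In FF mice Blvra had 23.56, 21.96, 19.73 and 22.23 FPKM in the cold against 41.47, 41.4 and 42.08 FPKM when fed, and fell to 52.5% of the fed mean (log2 difference -0.90, SE 0.12, adjusted p = 1.811e-05). Over all genes cold lowered 6.5% in BKO and 10.3% in FF mice. Macrophage markers were lower in the same comparison: of 10 tested, 3 fell in BKO and 5 in FF mice, with 0 higher in either. Their summed level was 75.79 to 109.5 FPKM in cold against 109.2 to 151.5 FPKM in fed BKO mice and 84.84 to 94.93 FPKM in cold against 103.6 to 121.5 FPKM in fed FF mice, and their part in the falls of the reductases was not tested. The difference between the 2 falls of Blvra, BKO minus FF, was 0.49 (SE 0.17, adjusted p = 1). Within the first series alone the FF differences were -0.93 for Blvra (adjusted p = 0.002684) and -0.66 for Blvrb (adjusted p = 0.004081). Within the second series, which held 1 cold and 1 fed FF library, they were -0.81 for Blvra (adjusted p = 0.1356) and -0.68 for Blvrb (adjusted p = 0.3023).

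Hmox2 stood at 45.99, 47.32, 44.11 and 49.4 FPKM in cold and at 38.56, 45.08 and 37.67 FPKM in fed BKO mice (log2 difference 0.21, SE 0.08, adjusted p = 0.09869). In FF mice it had 45.51, 46.29, 40.58 and 43.14 FPKM in cold against 35.88, 33.35 and 35.52 FPKM in fed libraries and rose by 0.32 (SE 0.08, adjusted p = 0.008441). That call was lost without fed replicate 2 (adjusted p = 0.05062), in the first series alone (0.31, adjusted p = 0.07615) and in the second alone (0.35, adjusted p = 0.4672). Hmox2 shares 892 exon bases, 40.2% of its own, with Cdip1 on the opposite strand, and the labels do not say whether counting used strand, so reads of the pair may not be separable. Cdip1 itself differed by -0.03 in BKO (adjusted p = 0.8839) and by 0.01 in FF mice (adjusted p = 0.9302) between cold and fed. Hmox1 had 11.12, 8.058, 7.315 and 9.1 FPKM in cold BKO mice, against 6.122, 4.596 and 8.723 FPKM in fed ones (log2 difference 0.43, SE 0.41, adjusted p = 0.5365). In FF mice it had 10.07, 12.34, 10.89 and 11.27 FPKM in the cold, against 4.163, 3.879 and 5.554 FPKM when fed, and rose by 1.14 (SE 0.41, adjusted p = 0.0471). That call sat at the threshold: leaving out any of 18 libraries ended it, with an adjusted p of at most 0.1455, and so did fitting either series alone. Cold raised 0 members and lowered 2 in BKO mice, where 9.72% of all genes rose and 6.5% fell. It raised 2 and lowered 2 in FF mice, where 13.3% rose and 10.3% fell.

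None of the 6 synthesis members passed the test in the cold in either genotype. Alas1 stood at 144.1, 125.6, 134.0 and 152.3 FPKM in cold BKO and 133.8, 126.3, 119.6 and 118.4 FPKM in cold FF mice, with log2 differences from fed of -0.36 (SE 0.16, adjusted p = 0.1493) in BKO and -0.40 (SE 0.16, adjusted p = 0.0836) in FF mice. The FF difference of Alas1 did pass under quantile normalization (-0.50, adjusted p = 0.03507), with array weights (-0.45, adjusted p = 0.001251) and when only those groups were fitted (adjusted p = 0.03277). It also passed without fed replicate 3 (-0.55, adjusted p = 0.02814) or without fasted replicate 1 (adjusted p = 0.04269) or 2 (adjusted p = 0.04616). In the second series alone, with 1 cold and 1 fed FF library, the difference was 0.0039. Array weights also brought Alas1 in BKO mice (-0.41, adjusted p = 0.03165) and Ppox in FF mice (-0.25, adjusted p = 0.001343) past the threshold, and Ppox in FF mice passed without fed replicate 3 (-0.25, adjusted p = 0.04437). Alad, Urod, Cpox, Ppox and Fech had log2 differences between -0.19 and 0.13 over both genotypes. Ppox shares 791 exon bases, 17.5% of its own, with B4galt3 on the opposite strand, which itself fell in the cold by 0.25 (adjusted p = 0.04671) in BKO and by 0.36 (adjusted p = 0.003937) in FF mice.

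**Figure D3:**
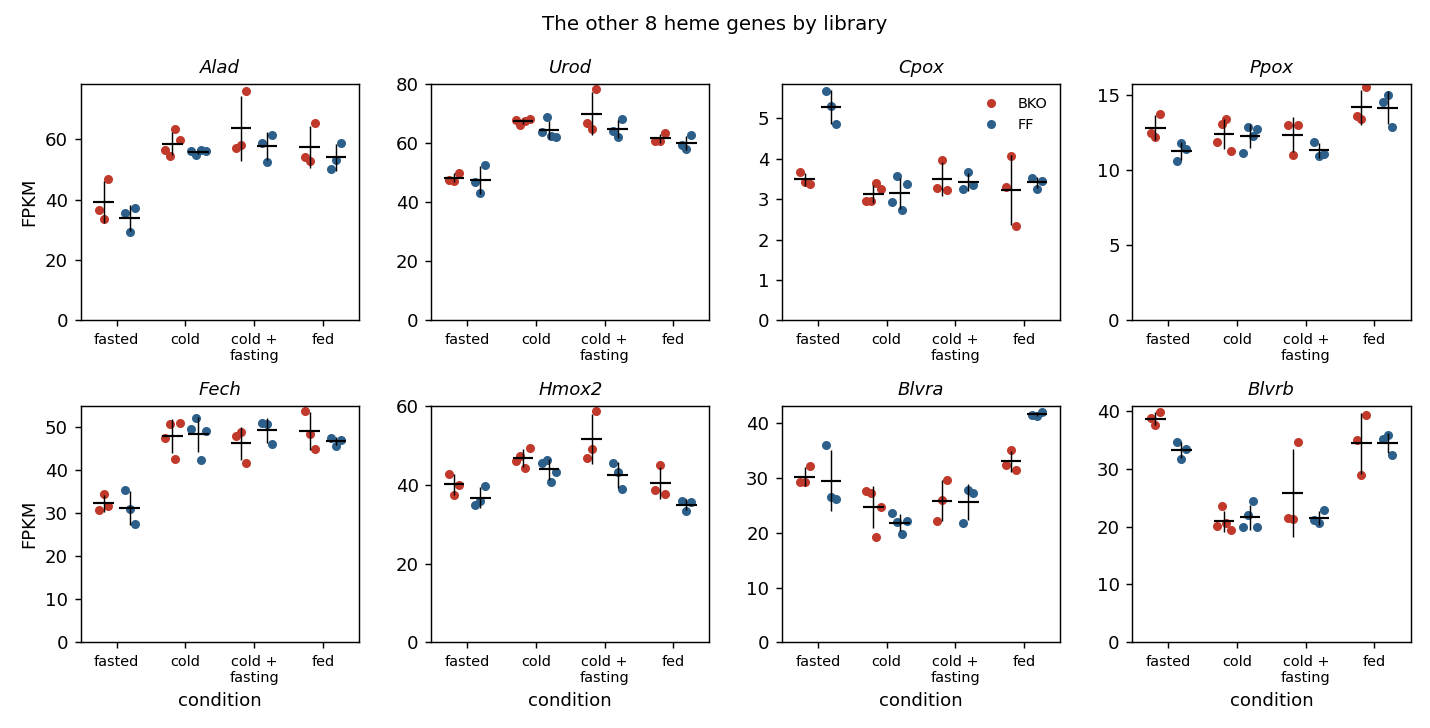
FPKM of the other 8 genes by condition, one point per library with each group's mean and SD, BKO in red and FF in blue, all axes starting at 0. Alad, Urod and Fech are low in the fasted groups, Blvra and Blvrb are low in the cold and cold plus fasting groups, and Cpox is high in the 3 fasted FF libraries at 4.852 to 5.677 FPKM.

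In mice given cold plus fasting, Hmox1 was far lower and Alas1 higher than in mice fasted at room temperature, and no member passed the test against cold alone. Hmox1 had 10.26, 8.101 and 14.15 FPKM in cold plus fasting BKO mice, against 367.4, 99.99 and 72.62 FPKM in fasted ones, and 11.54, 13.22 and 8.806 FPKM in cold plus fasting FF mice, against 88.63, 214.6 and 385.2 FPKM in fasted ones. It was thus lower by 3.60 (SE 0.44, adjusted p = 1.093e-06) in BKO and by 4.02 (SE 0.44, adjusted p = 1.592e-07) in FF mice on the log2 scale. Alas1 had 136.5, 116.2 and 118.6 FPKM in cold plus fasting BKO mice, 186% of the fasted mean (log2 difference 0.90, SE 0.18, adjusted p = 0.0002936), and 112.2, 116.8 and 155.4 FPKM in cold plus fasting FF mice, 285% of the fasted mean (log2 difference 1.52, SE 0.18, adjusted p = 3.504e-07). Alad was higher than in fasted mice by 0.69 in BKO and 0.75 in FF mice, Urod by 0.52 in BKO and 0.45 in FF mice, and Fech by 0.50 in BKO and 0.64 in FF mice, with adjusted p between 8.675e-06 and 0.0002477. Cpox was lower by 0.50 (SE 0.11, adjusted p = 0.0008345) in FF mice and differed by 0.00 (SE 0.11, adjusted p = 0.9925) in BKO mice.

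Against fasted mice, Blvrb fell by 0.60 in both genotypes under cold plus fasting (SE 0.13, adjusted p = 0.0009571 in BKO and 0.0007189 in FF mice), and Hmox2 rose by 0.35 (SE 0.09, adjusted p = 0.003248) in BKO mice, with 0.20 (SE 0.09, adjusted p = 0.06189) in FF mice. The BKO call was lost under quantile normalization (0.19, adjusted p = 0.06734). The members' counts were 5 higher and 2 lower in BKO mice, where 22.9% of all genes were higher and 22.2% lower. They were 4 higher and 3 lower in FF mice, where 26% were higher and 25.9% lower. The FF comparison sets libraries of the second series against libraries of the first, and the call of Blvrb there was lost with the series as a covariate. The BKO comparison lies within the second series. Against cold mice, cold plus fasting changed 0 of the 10 members in either genotype by limma. Over all genes that comparison called 0.00787% in BKO mice (1 gene, with 1109 at an unadjusted p under 0.05) and 0% in FF mice (0 genes, with 376 at an unadjusted p under 0.05), and 1 member, in BKO mice, was under 0.05 unadjusted. With array weights the BKO comparison called 224 genes higher and 272 lower.

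Set against fed mice, cold plus fasting lowered Blvrb in both genotypes and Blvra in FF mice. Blvrb fell by 0.42 (SE 0.13, adjusted p = 0.02964) in BKO mice, where replicate 3, at 34.67 FPKM, lay apart from 21.42 and 21.4 FPKM, and by 0.65 (SE 0.13, adjusted p = 0.001458) in FF mice, with 21.15, 20.6 and 22.94 FPKM. Blvra had 22.08, 25.96 and 29.61 FPKM in cold plus fasting BKO mice (log2 difference -0.35, SE 0.13, adjusted p = 0.06654). It had 21.75, 27.76 and 27.23 FPKM in FF mice, where it fell by 0.69 (SE 0.13, adjusted p = 0.0007602). Hmox2 rose by 0.34 (SE 0.09, adjusted p = 0.01182) in BKO and by 0.27 (SE 0.09, adjusted p = 0.03509) in FF mice. Alas1 fell by 0.52 (SE 0.18, adjusted p = 0.0402) in BKO mice, with -0.37 (SE 0.18, adjusted p = 0.1435) in FF mice. Ppox fell by 0.30 (SE 0.09, adjusted p = 0.01935) in FF mice, with -0.19 (SE 0.09, adjusted p = 0.142) in BKO mice. Several of these calls rested on single libraries. That of Blvrb in BKO mice was lost without cold plus fasting replicate 1 or 2 or fed replicate 1 or 3 (highest adjusted p = 0.1403), and that of Alas1 in BKO mice without cold plus fasting or fed replicate 2 or 3 (highest adjusted p = 0.1661). With no filter on low values both calls were lost. The Blvrb call was also lost in the second series alone and with only those groups fitted. That of Ppox in FF mice was lost without cold plus fasting replicate 2 or 3 or fed replicate 1 or 2 (highest adjusted p = 0.09537), with the series as a covariate (-0.18, adjusted p = 0.3219), in the second series alone (-0.17, adjusted p = 0.6069) and with only those groups fitted (adjusted p = 0.05296). The call of Hmox2 in FF mice was lost without cold plus fasting replicate 1 or 2 or any fed library (highest adjusted p = 0.1506). It was also lost under quantile normalization, with the series as a covariate and with only those groups fitted. Within the second series, with 1 fed FF library, the FF differences were -0.70 (adjusted p = 0.06726) for Blvra and -0.57 (adjusted p = 0.1967) for Blvrb. The call of Hmox2 in BKO mice was lost without fed replicate 3 (adjusted p = 0.05045) or cold plus fasting replicate 3 (adjusted p = 0.0867). It was also lost under quantile normalization and with only those groups fitted. Cold plus fasting BKO replicate 3 had the highest Hmox2 (58.77 FPKM), Alad (76.15 FPKM) and Urod (78.35 FPKM) of the study. The counts were 1 higher and 2 lower in BKO mice, where 10% of all genes were higher and 8.93% lower. They were 1 higher and 3 lower in FF mice, where 11.5% were higher and 8.93% lower. The fed libraries are shared by all comparisons with the fed state.

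Deletion of Klf15 was set against the floxed genotype within each condition. In fasted mice Alas1 was higher in BKO, with 59.93, 59.95 and 79.35 FPKM, against 60.25, 31.9 and 42.84 FPKM in FF mice, 1.48 times the FF mean (log2 difference 0.59, SE 0.18, adjusted p = 0.04018). The groups overlapped, since FF replicate 1 lay above 2 of the BKO libraries. Cpox was lower in fasted BKO mice, with 3.668, 3.42 and 3.384 FPKM, against 5.677, 5.306 and 4.852 FPKM in fasted FF mice, 66.1% of the FF mean without overlap (log2 difference -0.48, SE 0.11, adjusted p = 0.009658). These were the 2 members called of 10, 1 higher, where 4.53% of all genes were higher, and 1 lower, where 4.15% were. Both calls were lost with the library series as a covariate, which genotype cannot be told apart from in this comparison. Both were also lost when only the fasted groups were fitted. That of Alas1 was lost as well with no filter on low values and with array weights. Alas1 also lost its call without replicate 2 or 3 of either genotype (highest adjusted p = 0.2224), and Cpox without BKO replicate 3 (adjusted p = 0.05072). Among the 9 adipocyte genes tested in the same comparison, 3 were higher in BKO, 0 were lower and 6 were not called. Those higher were Plin1 by 1.14 (adjusted p = 0.0001415), Adipoq by 0.51 (adjusted p = 0.00913) and Lipe by 0.33 (adjusted p = 0.03025). Cidea, Prdm16, Cox7a1 and Elovl3 were among those not called. The part of these genes in the differences of Alas1 and Cpox was not tested.

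Hmox1 did not pass between genotypes in any condition: its log2 difference, BKO minus FF, was -0.48 (SE 0.44, adjusted p = 0.5544) in fasted, -0.31 (SE 0.38, adjusted p = 1) in cold, -0.06 (SE 0.44, adjusted p = 0.9938) in cold plus fasting and 0.41 (SE 0.44, adjusted p = 1) in fed mice. Members called numbered 0 of 10 in cold mice (0.402% of all genes called), 0 in cold plus fasting mice (0.236%) and 0 in fed mice (0.22%). With array weights 423 genes were higher and 362 lower in fed BKO mice, and Hmox2 passed there (0.24, adjusted p = 0.03792). At an unadjusted p under 0.05 there were 0 members in cold mice, 1 in cold plus fasting mice (Hmox2, log2 difference 0.27) and 2 in fed mice (Hmox2, 0.20, and Blvra, -0.33). Blvra had 32.42, 35.19 and 31.47 FPKM in fed BKO mice, against 41.47, 41.4 and 42.08 FPKM in fed FF mice, without overlap, and the fit over all genes gave it an adjusted p of 0.7243.

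Averaged over the 4 conditions, Hmox2 was the member called: it was higher in BKO by 0.17 (SE 0.04, adjusted p = 0.03365), where 1.26% of all genes were higher and 1.71% lower. In FPKM, its mean was 40.1 in BKO against 36.7 in FF mice when fasted, and 46.7 in BKO against 43.9 in FF mice in the cold. It was 51.5 FPKM in BKO against 42.5 in FF mice under cold plus fasting, and 40.4 FPKM in BKO against 34.9 in FF mice when fed. The overlapping gene Cdip1 differed in the same direction, by 0.14 (SE 0.05, adjusted p = 0.1116). The Hmox2 mean of BKO mice was above the FF mean in each condition, and the call was lost when any of 12 libraries was left out (highest adjusted p = 0.06352) and with the series as a covariate (adjusted p = 0.7421). None of the 30 differences of response between the genotypes passed. For fasting 0.716% of all genes passed such a test, for cold 0.00787% and for cold plus fasting 0.00787%. The smallest unadjusted p of the 30 was that of Blvra in the cold, followed by Cpox after fasting, both given above. After fasting, the difference of response was 0.37 for Blvra (SE 0.19, adjusted p = 0.4369) and 0.47 for Alas1 (SE 0.25, adjusted p = 0.4823). The Hmox1 response to fasting differed by -0.89 (SE 0.62, adjusted p = 0.6405).

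**Figure D4:**
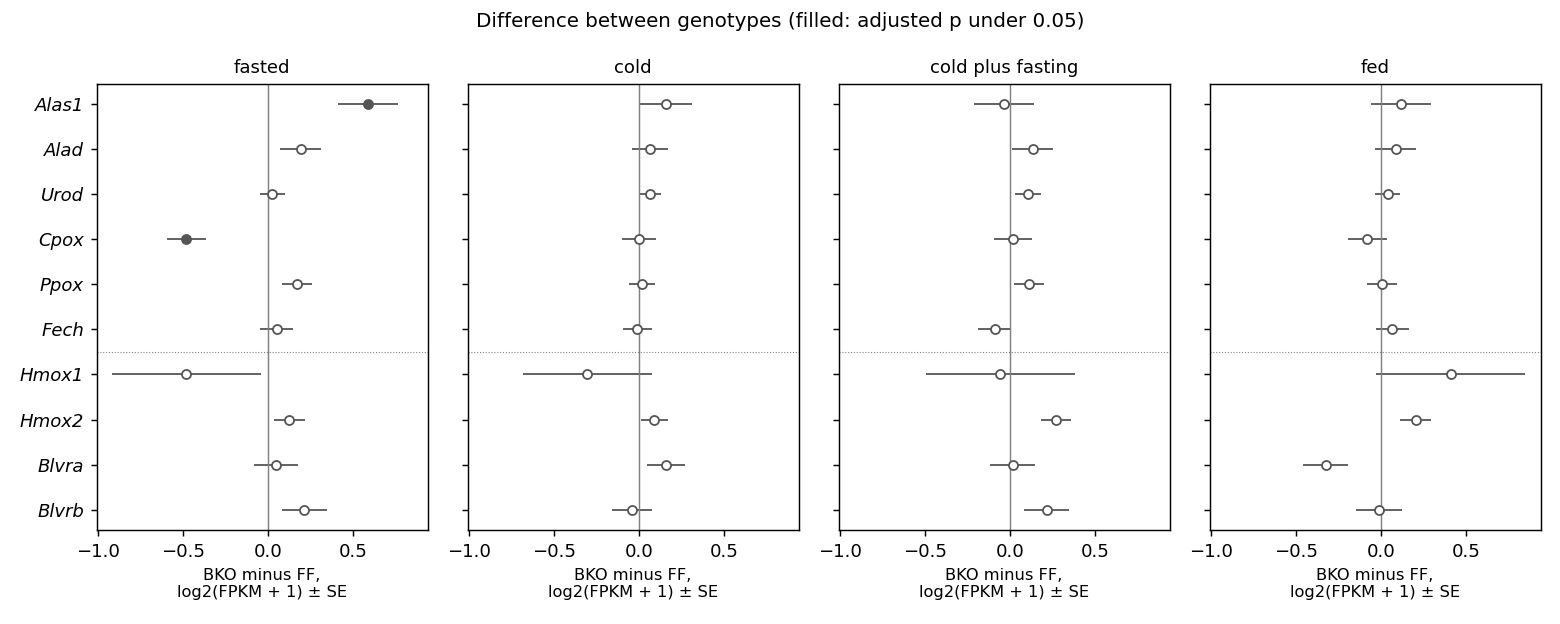
Difference between BKO and FF mice, BKO minus FF, in log2(FPKM + 1) for the 10 genes in each condition, with bars of 1 SE and filled points where the adjusted p is under 0.05. The 2 filled points, Alas1 at 0.59 and Cpox at -0.48, are both in the fasted condition.

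Uros and Alas2 also belong to the synthesis path. Uros, uroporphyrinogen synthase, fell after fasting by 0.31 (adjusted p = 0.005255) in BKO and by 0.37 (adjusted p = 0.0007897) in FF mice and rose in the cold by 0.39 (adjusted p = 0.0008059) in BKO and by 0.37 (adjusted p = 0.0008757) in FF mice. Alas2, the synthase of red blood cells, had fasting differences of -0.27 (adjusted p = 0.4928) in BKO and 0.40 (adjusted p = 0.2665) in FF mice and rose in the cold, by 0.84 (adjusted p = 0.02739) in BKO and 1.19 (adjusted p = 0.001952) in FF mice.

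Genes of heme and porphyrin transport and of mitochondrial iron import numbered 12 tested. Fasting raised 2 and lowered 5 of them in BKO mice, and raised 2 and lowered 5 in FF mice. Over all genes fasting raised 12.9% and lowered 14.6% in BKO mice, and raised 18.1% and lowered 19.4% in FF mice. Tmem14c, a carrier of porphyrin intermediates across the inner mitochondrial membrane, fell to 267 ± 5.64 FPKM in fasted BKO against 403.1 ± 11.9 FPKM in fed BKO mice (log2 difference -0.59, adjusted p = 5.091e-06; SD, n = 3 each). It fell to 284.4 ± 35.6 FPKM in fasted FF against 408.3 ± 6.32 FPKM in fed FF mice (log2 difference -0.53, adjusted p = 1.415e-05; SD, n = 3 each). Abcb10, a mitochondrial inner membrane transporter needed for heme synthesis, fell by 0.64 (adjusted p = 4.07e-06) in BKO and by 0.55 (adjusted p = 1.875e-05) in FF mice. Slc25a39, a mitochondrial carrier, rose in the cold instead, by 0.51 (adjusted p = 0.0006883) in BKO and by 0.67 (adjusted p = 2.619e-05) in FF mice. Slc25a38, the mitochondrial glycine carrier that feeds the Alas1 reaction, had 6.41 ± 0.488 FPKM in fasted BKO and 10.8 ± 2.02 FPKM in fasted FF mice, lower in BKO by 0.66 on the log2 scale (adjusted p = 0.0008294). Between fasted genotypes 2 of the 12 were higher in BKO and 1 lower, where 4.53% of all genes were higher and 4.15% lower. Library series and genotype cannot be told apart in that comparison.

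Of 11 iron handling genes tested, fasting raised 1 and lowered 5 in BKO mice, where 12.9% of all genes rose and 14.6% fell. It raised 3 and lowered 3 in FF mice, near the 18.1% higher and 19.4% lower over all genes. Steap3, a ferrireductase of endosomes, had 2.20 to 2.56 FPKM in fasted against 6.42 to 8.78 FPKM in fed BKO mice and fell by 1.37 (adjusted p = 3.798e-08). In FF mice it had 1.46 to 2.40 FPKM when fasted against 7.002 to 7.261 FPKM when fed and fell by 1.44 (adjusted p = 1.251e-08). Aco1, which as iron regulatory protein binds iron responsive elements of mRNAs, fell by 0.73 (adjusted p = 1.929e-06) in BKO and by 1.07 (adjusted p = 8.418e-09) in FF mice. Tfrc, the transferrin receptor, fell by 2.01 (adjusted p = 4.727e-05) in BKO and by 0.86 (adjusted p = 0.03433) in FF mice. Fth1, the ferritin heavy chain, fell by 0.37 (adjusted p = 0.007198) in BKO mice and differed by -0.04 (adjusted p = 0.7574) in FF mice.

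Of 13 regulators of heme genes, fasting raised 2 and lowered 1 in BKO mice, near the shares over all genes (12.9% higher, 14.6% lower). It raised 7 and lowered 2 in FF mice (18.1% higher, 19.4% lower). For a difference of fasting response between the genotypes 0 of the 13 passed, against 0.716% of all genes. All fasted FF libraries were in the first series and all fasted BKO libraries in the second. Bach1, the heme binding repressor of Hmox1, rose by 0.56 (adjusted p = 0.001875) in BKO and by 0.36 (adjusted p = 0.02616) in FF mice. Clpx, the unfoldase that acts on aminolevulinate synthase, rose by 0.69 (adjusted p = 0.0001292) in BKO and by 0.72 (adjusted p = 5.022e-05) in FF mice. Lonp1, a mitochondrial protease that degrades Alas1 protein, fell by 0.20 (adjusted p = 0.04922) in BKO mice and differed by -0.08 (adjusted p = 0.4409) in FF mice. Mafg, a small Maf partner of Bach1, differed by 0.19 (adjusted p = 0.182) in BKO and 0.13 (adjusted p = 0.3275) in FF mice. Of 7 heme proteins of the respiratory chain and heme A enzymes, 4 fell in BKO mice, where 14.6% of all genes fell, and 6 in FF mice, where 19.4% fell, with 0 higher in either. Cox10, which begins the conversion of heme B to heme A, fell by 0.63 (adjusted p = 0.0001564) in BKO and by 0.88 (adjusted p = 2.068e-06) in FF mice, and Cox15, which completes it, fell by 0.84 (adjusted p = 8.205e-06) in BKO and by 0.89 (adjusted p = 2.788e-06) in FF mice.

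Macrophages and red cell precursors also express heme enzymes. The summed level of 13 macrophage markers was 89.4 to 102.4 FPKM in fasted against 109.2 to 151.5 FPKM in fed BKO mice and 108.5 to 128.8 FPKM in fasted against 103.6 to 121.5 FPKM in fed FF mice. Of the 10 of them tested, fasting raised 0 in either genotype and lowered 4 in BKO and 0 in FF mice. The shares over all genes were 12.9% raised and 14.6% lowered in BKO mice, and 18.1% raised and 19.4% lowered in FF mice. Vsig4 and Marco stayed under 0.1 FPKM in every library. The part of macrophages in the fasting differences was not tested. The summed level of 8 erythroid and blood markers was 158.5 to 291.8 FPKM in fasted and 174 to 471.6 FPKM in fed BKO mice, and 225.6 to 265.6 FPKM in fasted and 120.4 to 187.6 FPKM in fed FF mice. In cold BKO mice that sum was 414.7 to 700.7 FPKM and in cold FF mice 341.7 to 600.6 FPKM. Of 5 tested markers, 4 were higher than fed in cold BKO mice, where 9.72% of all genes were higher. In cold FF mice 5 of 5 were higher, where 13.3% of all genes were, and Alas2 was among those higher in both genotypes. Epb42 stayed under 0.1 FPKM. The part of blood in the cold differences was not tested.

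**Figure D5:**
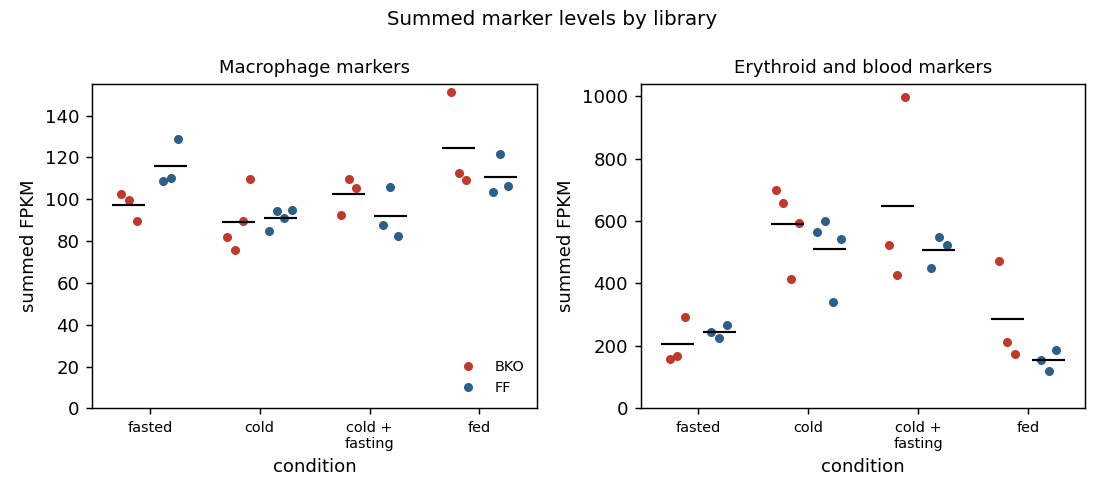
Summed FPKM of the macrophage markers (left) and of the erythroid and blood markers (right), one point per library and a line at each group's mean, BKO in red and FF in blue. The macrophage sum of fasted BKO libraries, 89.4 to 102.4 FPKM, lies below that of fed BKO libraries, and the erythroid sum is highest in the cold and cold plus fasting groups.

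Likeness of pattern was measured by Pearson's r of log2(FPKM + 1) over the 26 libraries. These libraries share groups and library series, so r is a description. The genes whose pattern was most like that of the 2 leading members were taken from 7668 genes with a mean of at least 5 FPKM. For Hmox1 they were Asl (r = 0.983), Map1lc3b (0.959), Bzw2 (0.954), Apod (0.95) and Grina (0.948). Asl, argininosuccinate lyase, averaged 35.5 FPKM in the fasted libraries and 4.55 FPKM in the fed ones, and Map1lc3b, the autophagosome protein LC3B, 180.7 FPKM in the fasted and 79.9 FPKM in the fed ones. For Alas1 they were Aco1 (r = 0.943), Lgals12 (0.939), D2hgdh (0.931), Bcs1l (0.929) and Parp1 (0.922). Aco1 averaged 49.9 FPKM in the fasted libraries and 93.1 FPKM in the fed ones, and Bcs1l, a chaperone that assembles respiratory complex III, 11.6 FPKM in the fasted and 22.8 FPKM in the fed ones.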

How the data were processed

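The deposited values are FPKM per gene and library. The submitters' processing notes name STAR, Cufflinks and Cuffdiff and the build mm10; versions, annotation and strand handling are not given in the sources used here. Groups came from the genotype and treatment labels, and replicates carry no pairing. From these values, 33 genes listed at 0 in some libraries and at 100 FPKM or more in all others, Ucp1 among them, were left out, and 12702 genes with at least 1 FPKM in 3 or more libraries were kept. limma 3.58.1 in R 4.3.3 was fitted to log2(FPKM + 1) over all 26 libraries with 8 group means and an intensity trend, and p-values were adjusted by Benjamini-Hochberg over all genes within each of 18 comparisons, two-sided, with a threshold of 0.05. Fold changes on this scale understate those of low genes. The fit was tested on simulated data. Relative depth came from the peak of FPKM ratios of genes under 0.05 FPKM. The members and gene lists were chosen with earlier results of these data known. Genes named are the members, Klf15, up to 4 genes a list by smallest adjusted p, and the 5 most similar genes for Hmox1 and Alas1; marker genes named singly were chosen after their values were seen. Alternatives were another pseudocount, 2 other filters, quantile normalization, array weights, the library series as a covariate, each series alone, only the groups compared, and each library left out; the fit to the first series alone was added after seeing the data. Of the listed transport genes, Flvcr1 and Flvcr2 were not analysed here.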

Additional observations from a re-analysis of the deposited data

How the results depend on the processing

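Of the 180 pairs of a member and a comparison, 43 were called, and 24 of these kept the call under all 9 alternative settings that could be fitted and without each of the 26 libraries; 19 lost it in some setting and 11 without some library. The count of members called between genotypes within a condition, 2 as reported, was 1 with no filter on low values, 1 with a mean of at least 5 FPKM required (which drops Cpox), 0 with the library series as a covariate and 0 when only the compared groups were fitted, and it ranged from 0 to 2 over left-out libraries. The count averaged over conditions, 1 as reported, was 0 with the series as a covariate and 0 to 1 over left-out libraries. The responses of BKO mice gave 10 calls as reported, 7 to 11 over left-out libraries and 7 to 13 over settings. Those of FF mice gave 16, 12 to 18 over left-out libraries and 13 to 21 over settings. The comparisons of cold plus fasting with another challenge gave 14, and 14 to 15 over left-out libraries. The differences of response gave 0 under every setting run. Counts over all genes moved more. Between genotypes 1103 genes were called in fasted mice (147 to 1421 over settings), 51 in cold (8 to 108), 30 in cold plus fasting (16 to 140), 28 in fed (5 to 785) and 377 on average (59 to 1344). Against fed FF mice 4761 were called after fasting (3009 to 5285), 2993 in the cold (117 to 6681) and 2600 under cold plus fasting (289 to 5713). Against fed BKO mice 2061 were called in the cold (1438 to 3286) and 2408 under cold plus fasting (814 to 3905). The differences of response gave 91 for fasting (5 to 315), 1 for cold (0 to 115) and 1 for cold plus fasting (0 to 101). Cold plus fasting against cold gave 1 in BKO mice (0 to 496) and 0 in FF mice (0 to 4), and against fasted FF mice 6599 (3724 to 7426). Apart from the fasted genotype comparison and the last 2, the highest count of each came with array weights. The difference of Alas1 between cold and fed FF mice, -0.40 and not called, was 0.0039 in the second series alone. That value compares 1 cold FF library at 133.8 FPKM with 1 fed FF library at 133.4 FPKM. Why that fed library lay below the other fed FF libraries, at 175.0 and 189.8 FPKM, was not tested. Cells with 1 library in the second series (FF cold and FF fed) were assumed to vary like the other groups. No paired analysis was possible because replicate numbers follow the order of accession and pair no libraries.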
